A study of Rattus norvegicus with 12 samples.

Results

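The FOS and JUN genes encode the classical subunits of activator protein 1 (AP-1), a dimeric transcription factor. They are described here in cultures enriched for rat gonadotropes, the LH- and FSH-secreting cells of the pituitary (luteinizing and follicle-stimulating hormone). The 7 genes Fos, Fosb, Fosl1, Fosl2, Jun, Junb and Jund were taken by name. Every probe set whose only gene symbol in the platform annotation was one of them was a member, which gave 13 probe sets of the 31042 on the array that are not array controls. Of these, 8 probe sets, which represent 6 of the 7 genes, were bright enough to be tested among 18625 probe sets. The tested ones comprised 1 probe set each of Fos, Fosb, Fosl1, Junb and Jund and 3 of Jun, and neither Fosl2 probe set was among them.

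Each experiment pooled the anterior pituitaries of 13 to 15 Sprague-Dawley rats, adult females whose ovaries had been removed 2 weeks earlier. Large cells, 6% of those recovered from a sedimentation gradient, were kept, and the labels give 40 to 60% of them as LH-positive. On culture day 3, wells received gonadotropin-releasing hormone (GnRH, the hypothalamic peptide that drives gonadotropes) at 10 nM or an equal volume of vehicle medium, both for 40 min, and all wells contained estradiol and charcoal-treated serum. The 6 GnRH and 6 vehicle arrays came from 3 cell preparations (enrichment sets, numbered I to III), and each preparation gave 2 arrays per agent. The RNA is that of a mixture of LH-positive and other cells, and fewer cells of a type and less RNA per cell cannot be told apart.

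AP-1 binds DNA as a JUN-JUN or FOS-JUN dimer held together by a leucine zipper. FOS proteins do not form stable dimers with each other and depend on a JUN partner. Several of the genes are immediate early genes: MAP kinase, calcium and cAMP signals switch them on within minutes through factors already bound at their promoters, without new protein synthesis. In gonadotropes GnRH receptor signalling is known to raise AP-1, which is known from mouse to act on the Fshb and Gnrhr promoters.

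Arrays differed in several technical measures. Bacterial hybridisation controls, spiked in at a fixed amount, gave a geometric mean signal of 2264 to 11705 on 5 arrays, which were the 4 arrays of set I and vehicle 5 of set III, and of 53482 to 320024 on the other 7. Set II thus held only arrays with high spike-in signal and set I only arrays with low signal. A background limit was set for each array at the 90th percentile of 27 dim bacterial control probe sets, and it ran from 54.4 to 575, the highest being that of vehicle 3. Vehicle 3 stood apart from the rest: its median Spearman correlation with the other arrays was 0.376, against 0.623 to 0.715 for the other 11, and it had the lowest ratios of 3' to 5' signal for Gapdh and actin. Of all tested probe sets, 24.9% exceeded this limit on all 12 arrays. Of 9 gonadotrope markers measured, 7 did so, and the summed signal of the 9 ran from 87274 to 506894 on GnRH arrays and from 41739 to 481564 on vehicle arrays. That of 8 somatotrope, lactotrope and thyrotrope markers reached higher, from 98680 to 671554 on GnRH arrays and from 49083 to 1174180 on vehicle arrays. Markers above the limit on every array numbered 0 of 3 measured for corticotropes and melanotropes, 0 of 7 for endothelial cells and 0 of 3 for erythrocytes. They numbered 1 of 8 for leukocytes and 1 of 7 for folliculostellate and stem cells. For fibroblasts and pericytes they numbered 3 of 8, and for somatotropes, lactotropes and thyrotropes 4 of 8. No marker of any list was at 0 on all arrays.

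Fosb, which encodes a FOS-class subunit with a long-lived splice form known from brain, was the family member that rose after GnRH. The Fosb signal (probe set 1373759_at) in set I was 2128 and 1359 on GnRH arrays, against 476 and 342 on vehicle arrays. In set II it was 1984 and 1900 on GnRH arrays, against 125 and 403 on vehicle arrays. In set III it was 3136 and 4776 on GnRH arrays, against 1073 and 1068 on vehicle arrays. Every GnRH array therefore lay above every vehicle array, in 36 of 36 pairs, and the lowest GnRH value came from set I while the highest vehicle value came from set III. Such complete separation was found for 10 of the 18625 tested probe sets, or 0.0537%.

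The Fosb difference was 2.29 ± 0.32 on the log2(signal + 16) scale (SE, n = 6 per group), a fold of 4.90. On that scale the pseudocount of 16 understates folds of dim probe sets. By limma with Benjamini-Hochberg adjustment over all tested probe sets its adjusted p was 0.0411. It was the 1 probe set called as higher, 0.00537% of those tested, and 0 were called as lower (349 and 294, or 1.87% and 1.58%, had an unadjusted p under 0.05, and Fosb was the 1 member probe set among them). When agent labels were exchanged within preparations, the two-sided exact permutation p of Fosb was 0.00926, the smallest that test can give. Of the 36 pairs, 94.4% differed by at least 1.50-fold, so Fosb also met a fold and concordance criterion (the study's, without its software change calls), as did 7.62% of tested probe sets. Vehicle 3 was the 1 array on which Fosb, at 125, did not exceed the background limit. Without that array the difference was 2.01 with a limma adjusted p of 0.00358. The call was lost when any of the other 11 arrays was left out, with limma adjusted p of up to 0.310, while the difference stayed between 2.20 and 2.43.

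**Figure D1:**
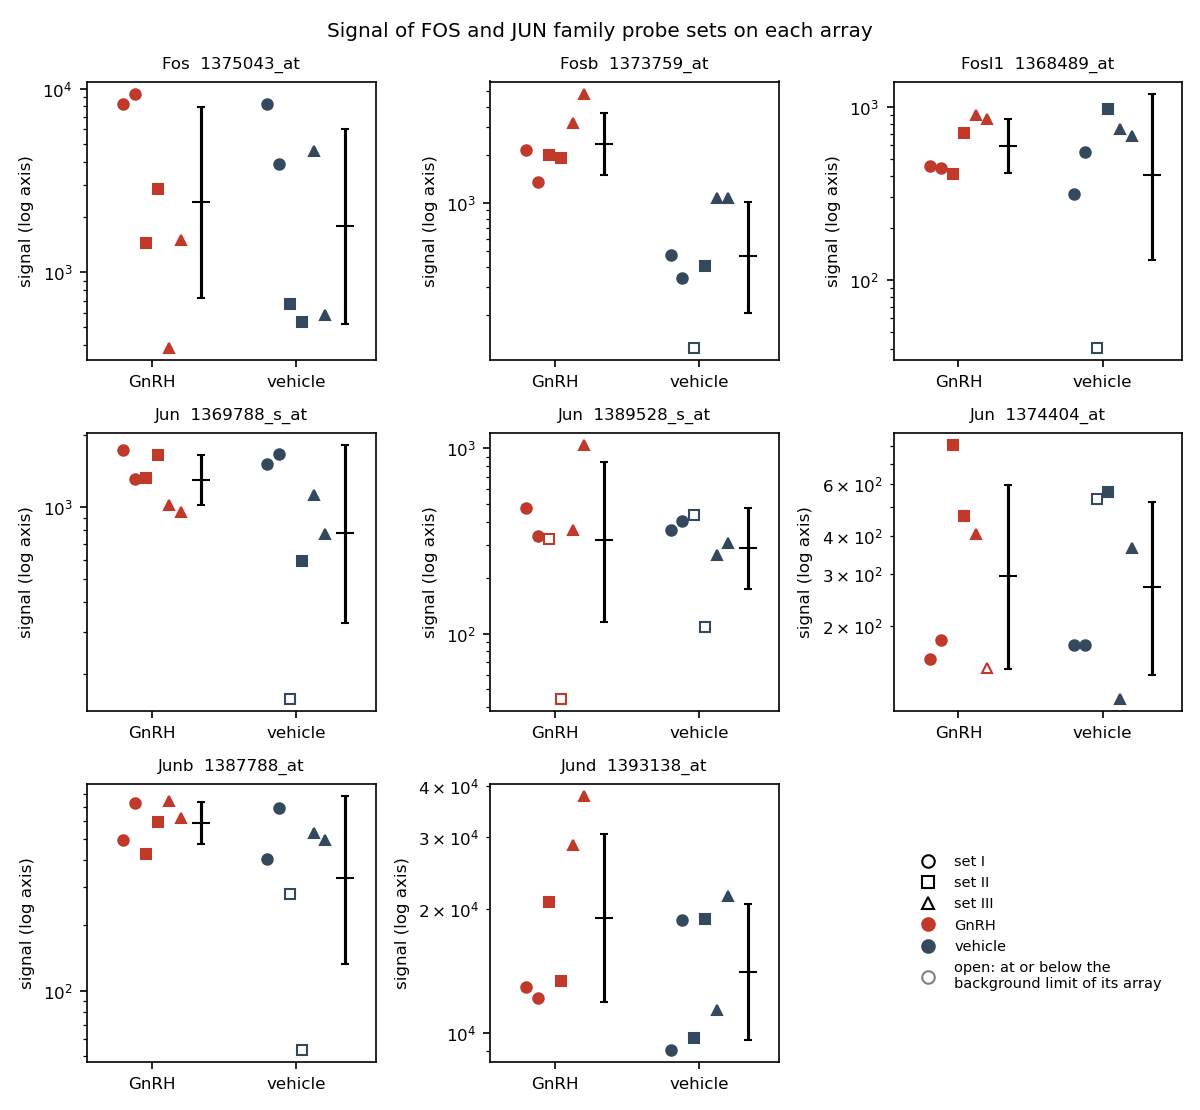
Signal of the 8 tested FOS and JUN probe sets on each array, on log axes, with GnRH left of vehicle. Circles, squares and triangles stand for sets I, II and III, open symbols lie at or below the background limit of their array, and the black marks give the mean and SD of log2(signal + 16) turned back to signal (n = 6). The Fosb groups do not overlap, with GnRH from 1359 to 4776 and vehicle from 125 to 1073, whereas those of the other probe sets do.

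The level of Fosb also differed between preparations. Its mean log2 value over both agents was 9.73, 9.43 and 11.01 for the 3 preparations in order (limma moderated F, adjusted p = 0.0454). Of all tested probe sets, 6.02% passed that test and 27.8% had an unadjusted p under 0.05. The Fosb level in set III vehicle cultures came near the lowest of the GnRH cultures of set I. The GnRH response itself was 2.03 in set I, 3.01 in II and 1.84 in III. The test of whether it differed between sets gave a limma adjusted p of 0.954. No probe set passed that test of the response (0% of those tested, with 5.36% at an unadjusted p under 0.05). Quantile normalization gave a limma adjusted p of 0.0819 for the difference in Fosb level between sets, and a pseudocount of 1 gave 0.0536.

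Fos, the founding FOS-class subunit and a common marker of cell activation, varied more with the array than with the agent. In set I the Fos signal (probe set 1375043_at) was 8258 and 9317 on GnRH arrays, against 8233 and 3895 on vehicle arrays. In set II it was 1446 and 2846 on GnRH arrays, against 667 and 537 on vehicle arrays. In set III it was 387 and 1492 on GnRH arrays, against 4564 and 586 on vehicle arrays. GnRH arrays were thus above both vehicle arrays in sets I and II, in 4 of 4 pairs each, but in 1 of 4 pairs in set III. The difference over 12 arrays was 0.42 ± 0.52 (log2, SE; 95% interval -0.68 to 1.53), which did not pass (limma adjusted p = 0.981). By set it was 0.63, 1.74 and -1.09.

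The Fos signal separated the arrays by their spike-in level. It ran from 3895 to 9317 on the 5 dim spike-in arrays and from 387 to 2846 on the 7 bright ones, without overlap and whatever the agent. Spike-in level and preparation mostly coincided, and their separate parts in the Fos level were not tested. Vehicle 5, a set III array whose spike-in controls were dim, carried the high vehicle value of that set. Without it the Fos difference was 0.98, and with each of the other arrays left out it ran from 0.14, without GnRH 4, to 0.85. With the spike-in level as a covariate it was 0.93, and it was 0.73 on the 5 dim spike-in arrays alone (no set term) and 1.19 on the 7 bright ones. Between sets the Fos level differed by the limma moderated F test (adjusted p = 0.0284), with mean log2 values of 12.79, 10.13 and 10.15 for the 3 preparations in order, though quantile normalization gave an adjusted p of 0.0613. A second Fos probe set, 1371283_at, lay below the background limit on 11 arrays and at 1523 on vehicle 3. It gives no second reading of the Fos response.

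**Figure D2:**
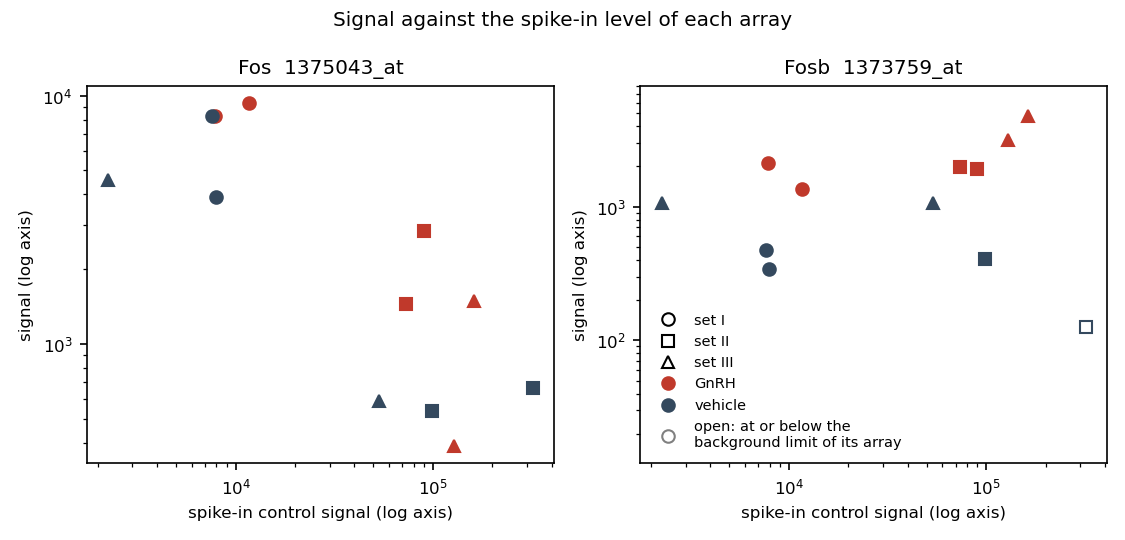
Fos (left) and Fosb (right) signal of each array against the geometric mean signal of the spiked bacterial controls, both on log axes. Colours give the agent, symbols the set, and an open symbol a value at or below the background limit. Fos is at or above 3895 on the 5 arrays with low spike-in signal and at or below 2846 on the other 7, while Fosb separates by agent at both levels of spike-in signal.

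Fosl1, which encodes FRA-1, a FOS-class subunit without a transactivation domain, and Fosl2, which encodes the related FRA-2, did not pass the test or were not tested. The Fosl1 signal (probe set 1368489_at) ran from 409 to 899 with a median of 583 on GnRH arrays, and from 40.5 to 975 with a median of 615 on vehicle arrays. The groups overlapped, and the vehicle median was the higher of the 2 even though the mean difference was 0.54 ± 0.54 (log2, SE; limma adjusted p = 0.981). The low value of 40.5 belonged to vehicle 3, below its background limit, and without that array the difference was -0.06. In set III alone both GnRH arrays, at 899 and 847, exceeded both vehicle arrays, at 747 and 678. The Fosl2 probe sets each exceeded the background limit on 3 of 12 arrays. Probe set 1383860_at ran from 35.4 to 146 on GnRH arrays and from 19.6 to 475 on vehicle arrays, and 1387530_a_at from 41.2 to 200 on GnRH arrays and from 59.6 to 147 on vehicle arrays. Their untested differences of -0.65 and -0.17 are therefore mostly between values near background, although the first met the mirrored fold and concordance criterion for a fall, as did 7.6% of tested probe sets, and no longer did with a pseudocount of 64.

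Junb, which encodes a JUN-class subunit that is itself an immediate early product and a weaker activator than JUN, was higher in most pairs without passing the adjusted test. Its signal (probe set 1387788_at) was 494 and 726 on GnRH arrays of set I, against 404 and 695 on vehicle arrays. In set II it was 424 and 594 on GnRH arrays, against 278 and 53.6 on vehicle arrays, both vehicle values lying below the background limit. In set III it was 748 and 623 on GnRH arrays, against 534 and 493 on vehicle arrays. Within sets, GnRH exceeded vehicle in 11 of 12 pairs, a count that 2% of tested probe sets reached or passed; Fosb did so in 12 of 12, as did 0.424%.

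The Junb difference was 0.81 ± 0.43 (log2, SE; 95% interval -0.11 to 1.73; limma adjusted p = 0.981). The exact within-set permutation test gave an unadjusted p of 0.0463 for Junb, 1 of 13 member probe sets to which that test was applied. The difference was 0.17 in set I, 1.86 in II and 0.40 in III. Without vehicle 4 it was 0.42. Junb therefore had the same sign in each set and its size rested on set II, where the vehicle values lay near background.

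Jun, which encodes c-JUN, the main dimer partner of FOS proteins and a substrate of JNK kinases, had 3 tested probe sets that differed among themselves. The brightest, 1369788_s_at, ran from 948 to 1727 on GnRH arrays and from 158 to 1669 on vehicle arrays. Its difference was 0.73 ± 0.40 (log2, SE; limma adjusted p = 0.981), made up of -0.08 (I), 2.19 (II) and 0.07 (III). In set II it read 1323 and 1638 on GnRH arrays, against 158 and 595 on vehicle arrays, and 158 was below the background limit of vehicle 3. The unadjusted p for a response that differs between sets was 0.0228, and the limma adjusted p was 0.916. Without vehicle 3 alone the difference was 0.32, with arrays weighted by their quality it was 0.18, and without set II it was -0.0024.

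The other Jun probe sets differed by 0.13 (1389528_s_at) and 0.12 (1374404_at), with limma adjusted p of 0.999 each. In set II they gave -0.74 and 0.17. Every set II value of 1389528_s_at lay below the background limit of its array, so its -0.74 gives no reading of the response there. The 0.17 of 1374404_at did not share the size of the rise seen with 1369788_s_at in set II. In set III 1389528_s_at gave 1.06, with GnRH above vehicle in 4 of 4 pairs, and 1374404_at gave 0.23. Probe set 1374404_at was also brighter on arrays with high spike-in signal, with a median of 468 against 173 on the other 5 arrays, while 1369788_s_at had medians of 948 and 1505. The probe sets may match different stretches of the transcript, and their sequences were not used here.

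Jund, which encodes a JUN-class subunit that most cells make without stimulation and that is classed as the least inducible JUN protein, was bright on every array by probe set 1393138_at. Its signal ran from 12138 to 37785 with a median of 17128 on GnRH arrays, and from 9080 to 21518 with a median of 15101 on vehicle arrays. The mean log2 value lay at the 99.7th percentile of all probe sets on the array. The groups overlapped, and the difference was 0.44 ± 0.33 (log2, SE; 95% interval -0.25 to 1.13; limma adjusted p = 0.981). It was -0.06 in set I, 0.30 in II and 1.07 in III, where the set III GnRH arrays, at 28731 and 37785, were the brightest of the 12. Without vehicle 5 it was 0.24, and with array weights 0.12. The other Jund probe sets exceeded the background limit on 3 arrays and on 1 array and were not tested.

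**Figure D3:**
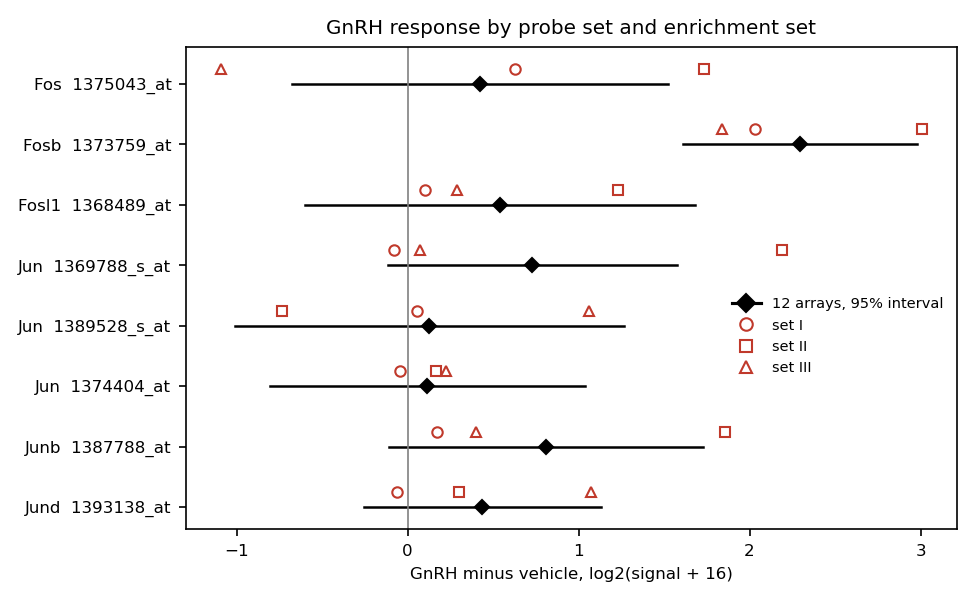
GnRH minus vehicle difference in log2(signal + 16) of the 8 tested probe sets. Diamonds and lines give the estimate over 12 arrays with its 95% interval, and open circles, squares and triangles give sets I, II and III, with 2 arrays of each agent per set. The Fosb interval, 1.61 to 2.98, is the one that excludes 0, and the differences of Fosb, Fosl1 and Junb are above 0 in each set.

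**Figure D4:**
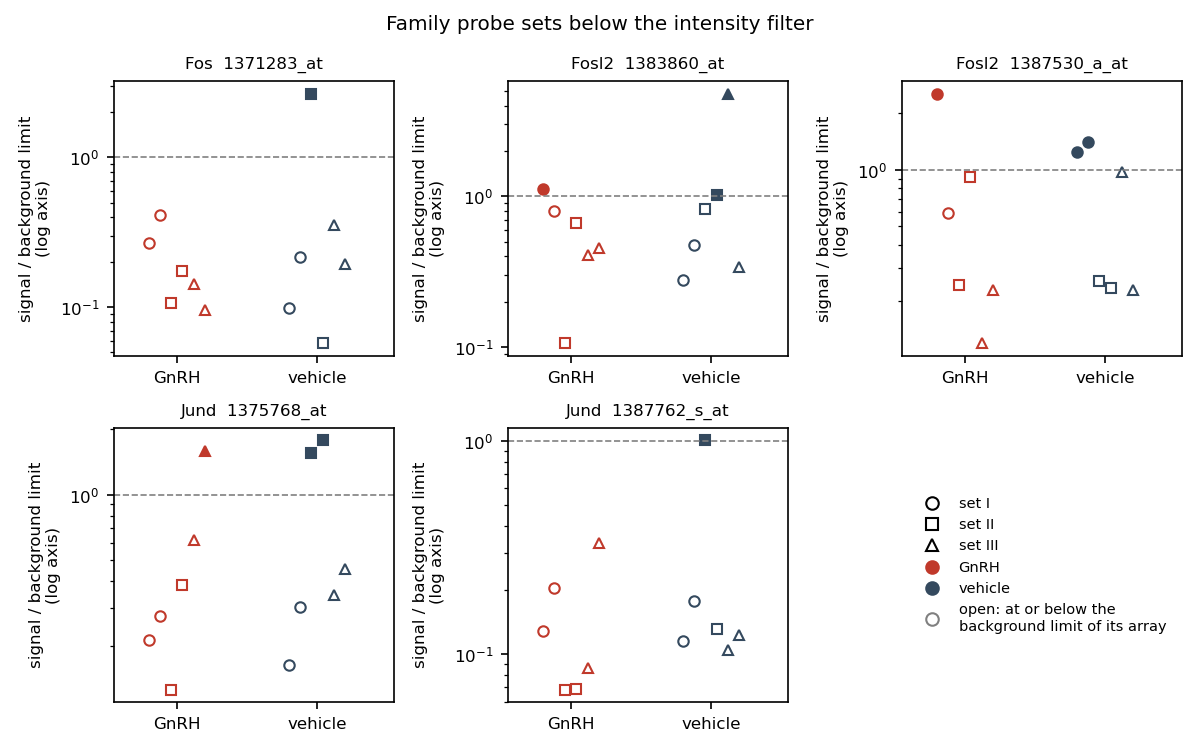
The 5 family probe sets below the intensity filter, as the ratio of signal to the background limit of the same array on a log axis, with the dashed line at 1. GnRH is left of vehicle, symbols give the set, and filled symbols exceed the limit. Each probe set exceeds it on 1 to 3 of the 12 arrays, and vehicle 3 is the 1 array on which Fos 1371283_at and Jund 1387762_s_at do so.

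Across the family, each gene was represented by its brightest tested probe set. The mean difference was above 0 for 6 of the 6 tested genes, as it was for 54.6% of all 10680 tested genes, and the median difference was 0.64 against 0.04 over all tested genes. The other 2 tested Jun probe sets were at 0.13 and 0.12. The 5 untested member probe sets, each above the background limit on 1 to 3 arrays, all differed below 0, from -0.65 to -0.17. Without vehicle 3 the family median was 0.33 and 5 of the 6 genes were above 0. It was 0.34 with array weights. By set it was 0.14 in set I, with 4 of the 6 genes above 0, 1.80 in set II and 0.34 in set III. Fosb passed the test of GnRH against vehicle and the other 5 did not, and the responses of the genes were not tested against each other. Of the 6 genes, 3 were higher in each of the 3 sets (Fosb, Fosl1 and Junb), against 12.3% of all tested genes and 12.6% of probe sets. How closely the genes followed each other over the 12 arrays, once the mean of each set was removed, varied by pair. As a description, the Pearson correlation of these values with Fosb was 0.73 for Jun, 0.53 for Fosl1, 0.47 for Jund, 0.43 for Junb and 0.34 for Fos, while the highest in the family, 0.78, was that between Fosl1 and Jun and the lowest, -0.45, that between Fos and Jund. All these values share the arrays, the agent and the scaling. Fosb, Jun and Fosl1 each had their lowest value on vehicle 3, at 125, 158 and 40.5, below its background limit of 575. The correlations without that array were not computed.

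Among all tested genes, those whose set-centred values followed Fosb most closely over the 12 arrays were Scn4b, a sodium channel subunit gene, at r = 0.91, Nr4a3, an immediate early nuclear receptor gene, at r = 0.91 and Fdx1, which encodes an electron carrier of steroid synthesis, at r = 0.90. Nr4a3 differed between agents by 1.09 ± 0.29, Fdx1 by 0.59 ± 0.25 and Scn4b by 0.40 ± 0.32 (log2, SE; limma adjusted p = 0.981 each). Thus the Fosb pattern was approached by genes with smaller differences. The genes nearest to Fos were Srp14, Ttbk2 and Trappc2 (r = 0.95 each), which differed between agents by 0.16, 0.45 and 0.22. Those nearest to Jun were Orai3, Suclg2 and Sms (r = 0.97 to 0.98), and those nearest to Junb were Abt1, Zfp277 and U2surp (r = 0.94 to 0.97). None of these genes passed the test between agents.

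RefSeq windows upstream of the transcription start (GRCr8) were matched for 5 of the 7 genes and searched, on both strands and in the 250 bases before the start, for sites through which early genes are known to be switched on. The letters were TGACGTCA for the cAMP response element (in 1.59% of 33469 windows of that length), TGACG for the core of that element (18.2%), TGANTCA for an AP-1 site (6.34%), GCGTGGGCG for an EGR site (0.478%) and the CArG box, the core of the serum response element (1.5%). The core lies inside the full element, so a full element counts under both, and on the other strand the core reads CGTCA. Jund, Junb and Fosl1 are printed because their windows held matches, shown in capitals, so that a gene that most cells make without stimulation can be read beside those classed as inducible.
Jund (chr16:18769772-18770021, minus strand): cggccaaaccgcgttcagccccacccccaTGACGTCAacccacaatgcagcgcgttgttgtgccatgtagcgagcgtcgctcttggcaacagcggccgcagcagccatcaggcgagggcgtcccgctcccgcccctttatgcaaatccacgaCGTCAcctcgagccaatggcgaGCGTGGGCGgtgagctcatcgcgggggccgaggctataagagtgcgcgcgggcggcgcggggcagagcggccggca
Junb (chr19:40080876-40081125, plus strand): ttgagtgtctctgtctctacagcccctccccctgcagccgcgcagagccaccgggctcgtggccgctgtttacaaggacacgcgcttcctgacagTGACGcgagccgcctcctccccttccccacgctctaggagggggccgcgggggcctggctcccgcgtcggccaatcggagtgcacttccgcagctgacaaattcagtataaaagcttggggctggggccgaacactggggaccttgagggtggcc
Fosl1 (chr1:212183635-212183884, plus strand): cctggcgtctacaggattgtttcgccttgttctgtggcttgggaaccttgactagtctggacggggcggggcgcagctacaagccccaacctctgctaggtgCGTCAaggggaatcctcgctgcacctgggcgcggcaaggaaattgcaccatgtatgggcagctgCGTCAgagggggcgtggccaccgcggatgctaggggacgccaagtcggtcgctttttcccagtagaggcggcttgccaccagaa

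In the Jund window the full cAMP response element began 221 bases before the start, a further core 98 bases before it and an EGR site 76 bases before it. The Junb window held 1 core, 155 bases before the start, and the Fosl1 window 2, at 148 and 84 bases. None of these 3 windows held the AP-1 site or the CArG box, and the Fosl2 and Fosb windows held none of the 5 motifs. The Fosb window is that of a start lying 322 bases inside the outer end of the RefSeq gene, so it is not printed. A match is a description of letters, and no match says only that these letters are not in the window.

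Other basic leucine zipper genes, some of whose products can pair with FOS or JUN proteins, such as the ATF, MAF and BATF genes, gave no call. Of 17 tested, 10 were higher and 7 lower, 0 passed in either direction and the median difference was 0.04, against 0.04 over all tested genes. The 3 with the smallest p were Cebpd (-1.10 ± 0.44, log2, SE), Nfil3 (0.91 ± 0.46) and Cebpb (-0.51 ± 0.28), with limma adjusted p of 0.981 each. Cebpd and Cebpb encode C/EBP factors and Nfil3 a repressor of clock genes, and Cebpd and Cebpb were lower and Nfil3 higher in each of the 3 sets.

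Genes upstream of AP-1 gave no call. Of 16 tested MAP kinases and kinases above or below them, 7 were higher and 9 lower, with a median of -0.06. Rps6ka3, which encodes the kinase RSK2, had a log2 difference of 1.30 ± 0.53 (SE), against 0.05 by another of its probe sets. Mapk11, which encodes p38 beta, and Map2k1, which encodes MEK1, differed by 1.19 ± 0.62 and 0.55 ± 0.44. These 3 differences were largest in set II, which holds vehicle 3. In sets I, II and III Rps6ka3 gave 0.12, 2.78 and 1.02, Mapk11 -0.22, 3.65 and 0.15, and Map2k1 0.53, 1.88 and -0.75. Of 18 tested factors known to act on FOS and JUN promoters, such as SRF, the ELK factors and CREB1, 9 were higher and 9 lower, with a median of 0.02. Those with the smallest p were Mef2a (0.58 ± 0.30, with -0.41, 0.60 and 0.45 by its other probe sets), Mrtfa (0.66 ± 0.39) and Crem (0.78 ± 0.59, and 0.22 by another probe set). Of 14 regulators of FOS and JUN protein or mRNA 9 were higher and 5 lower, with a median of 0.10. Ncoa1, a coactivator gene, differed by -0.57 ± 0.34 (-0.19 by another probe set), Zfp36l2, whose product promotes mRNA decay, by 0.38 ± 0.31 and Cop1, a ubiquitin ligase gene, by 0.63 ± 0.52 (log2, SE). Cop1 was at 0.19 in set I, 2.30 in II and -0.59 in III. In each of these lists 0 members passed.

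Known AP-1 targets, collected mostly from other tissues, also gave 0 calls. Of 24 tested, 16 were higher and 8 lower, with a median of 0.14 against 0.04 over all tested genes. Cd44, which encodes a hyaluronan receptor, differed by 1.06 ± 0.41 and its other probe set by 0.60. The first of these was 0.24 in set I, 2.36 in II and 0.58 in III. Penk, the enkephalin precursor gene, differed by 0.83 ± 0.32 (log2, SE) and was higher in each set, at 0.59, 1.02 and 0.88. Hmox1, which encodes heme oxygenase, differed by 1.02 ± 0.59, of which 2.84 was in set II against 0.10 in I and 0.12 in III. Of 9 tested gonadotrope markers, 6 were higher and 3 lower, with a median of 0.18 and 0 calls. Of these, 1 was higher at an unadjusted limma p under 0.05, as were 192 of all 10680 tested genes, and this marker is none of those named next. The list also named transcription factor genes, Egr1 among them. Cga and Lhb, which encode LH subunits, Gnrhr, the GnRH receptor gene, and Fshb, an FSH subunit gene, differed by 0.89, 0.74, 0.18 and 0.13, with standard errors of 0.67, 0.55, 0.53 and 0.29. Cga and Lhb were furthest apart in set III, which holds vehicle 5, at 2.40 and 1.63, against 0.13 and 0.13 in set I and 0.15 and 0.46 in set II. Gnrhr had a further tested probe set at 0.75.

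Values of the cell mixture beside these results were as follows. The summed gonadotrope marker signal was 5.11-fold higher where the spike-in controls were bright (7 arrays) than where they were dim (5 arrays), and that of the somatotrope, lactotrope and thyrotrope list 6.70-fold higher, against 0.143-fold for Fos and 1.35-fold for Fosb. Heat shock and dissociation stress genes were included because tissue dispersal is known to induce FOS and JUN genes. All 8 tested had a difference above 0, as did 54.6% of all tested genes. Their median was 0.32, against 0.04 over all tested genes, with 0 calls. Their summed signal ran from 26121 to 41677 on GnRH arrays and from 11912 to 36778 on vehicle arrays. The exact within-set permutation test of that sum gave p = 0.213, which does not show that the agents were alike. The summed signals of the other marker lists gave exact p from 0.111 for folliculostellate and stem cells to 0.815 for corticotropes. The part of cell makeup and of dispersal stress in the family's values was not tested.

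**Figure D5:**
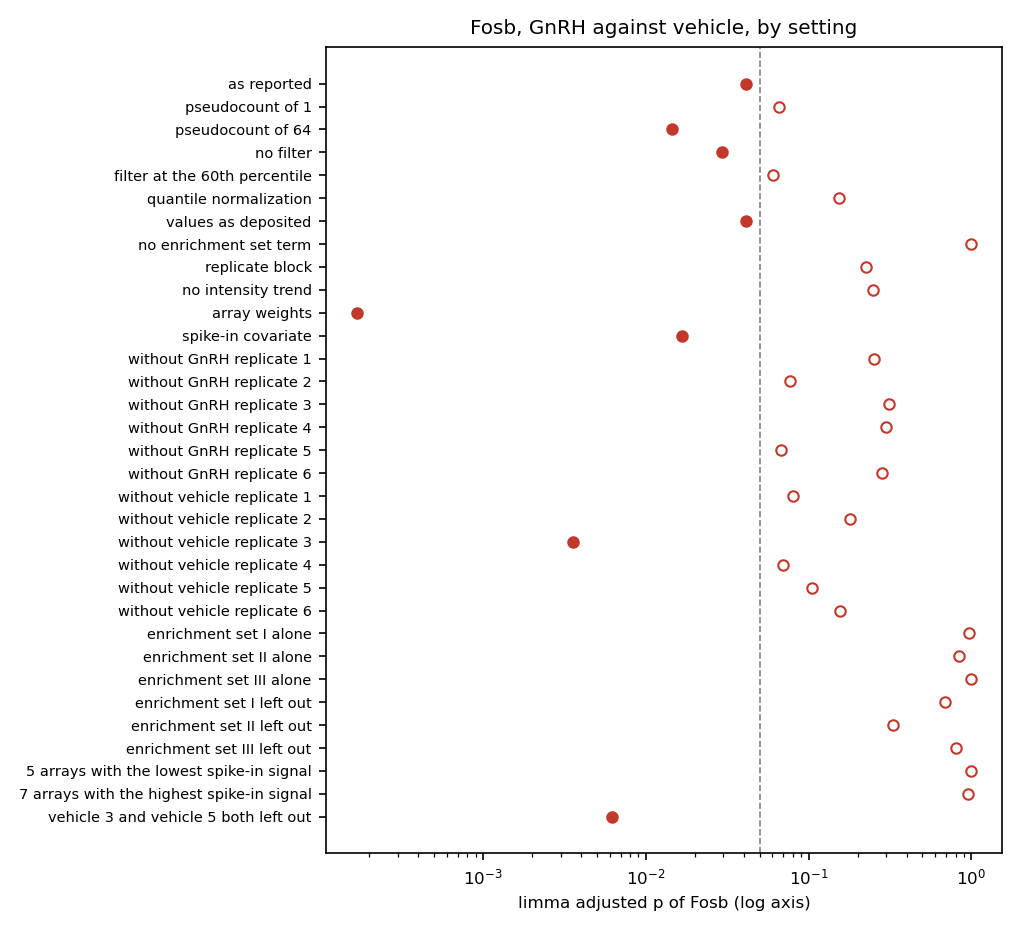
The limma adjusted p of Fosb, on a log axis, as reported and under 32 other settings, with the dashed line at 0.05 and filled symbols below it. Fosb passes under 7 of the 32, and its difference is above 0 under each of them, from 1.57 to 3.01.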

How the data were processed

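RNA of 12 samples from rat cultures was measured on 12 Affymetrix rat expression arrays after 2 rounds of T7 amplification, per the labels' protocols. Such amplification favours the 3' end of transcripts. The deposited values are linear intensity signals per probe set, computed by the authors with GCOS (per the submitters' processing notes; neither its version nor its settings were found there). Their trimmed means, 497 to 499, show that they had been scaled before deposit.

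Signals were multiplied per array to bring the trimmed mean to 500 (2% off each end, controls left out) and 16 was added before log2. Probe sets with a mean log2 value at or above the 40th percentile were tested in limma 3.58.1 (R 4.3.3), with terms for enrichment set and agent, an intensity trend and Benjamini-Hochberg adjustment over 18625 probe sets at 0.05. Moderated F tests compared the sets and the response between sets. The fits were tested on simulated data. Single probe sets were also compared by an exact permutation test within sets (216 arrangements). The fold and concordance criterion, a fold of 1.50 in the geometric means and in 50% of the 36 pairs, did not use GCOS change calls. Symbols came from the platform annotation, checked against RefSeq (0 changed). The promoter windows are from RefSeq, GRCr8.

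All member probe sets are named, each gene by its brightest tested probe set. From each list the 3 genes with the smallest p, and for Fosb, Fos, Jun and Junb the 3 genes of highest correlation, are named. Members and lists were chosen with earlier results of these data known. The sample titles call each array a biological replicate. Nothing else in the labels says that wells of 1 preparation were separate cultures, so p-values measure the spread between these samples, which may be technical. Replicate numbers are shared by the agents, but with the set and group means removed same-numbered arrays correlated at -0.03, -0.03 and -0.14 in sets I, II and III, so they were not treated as pairs. The number of arrays limits the precision.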

Additional observations from a re-analysis of the deposited data

Results flagged for a closer look

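Among the 13 probe sets, each agent's 6 values were examined for a value standing far from the others, 26 groups in all, and chance marks about 1 in 20 such groups. The vehicle values of 3 probe sets were marked, with the gap to the next value taking up a share of the whole range above the critical value for 6 values. For Fos 1371283_at the share was 0.718, with vehicle 3 highest, and for Jund 1387762_s_at it was 0.700, again with vehicle 3 highest. For Jun 1389528_s_at it was 0.632, with vehicle 4 lowest. The first 2 of these are not tested probe sets.

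In 2 probe sets below the intensity filter both GnRH arrays lay above both vehicle arrays in 1 set and below them in another. Fosl2 1383860_at differed by 0.71 in set I and by -2.20 in set II, and Jund 1375768_at by 1.97 in set III and by -3.29 in set II (log2). The difference between sets was not tested for either, and most of these values lay at or below the background limit.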

How the results depend on the processing

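Of 32 alternatives, 7 kept the limma call of Fosb, and its difference kept its sign in all. The call was lost with a pseudocount of 1 (difference 2.34, adjusted p = 0.0662), a filter at the 60th percentile (2.29, 0.0605), quantile normalization (2.32, 0.155; 2.315 before rounding), no enrichment set term (2.29, 1.00), no intensity trend (2.29, 0.248) and the replicate number as a block (replicate block: 2.29, 0.224). It was also lost in sets I, II and III alone (2.03, 3.01 and 1.84) and with each set left out (2.42, 1.94 and 2.52). Among 3 alternatives chosen after seeing the data, it was lost on the 5 arrays with low spike-in signal (1.57, with no set term) and on the other 7 (2.54), and kept without vehicle 3 and vehicle 5 (2.03). With each array left out Fosb ran from 2.01 to 2.43. In all settings without the Fosb call 0 probe sets were called, 2 were called with array weights, and 0 to 1 with each array left out. Quantile normalization lowered the probe sets differing between sets to 618, against 1122; the cause was not tested.

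Signs turned for members without a call, the cause not being tested. Fos gave -1.09 in set III alone and -0.23 without set II, and 0.14 to 0.98 with each array left out. Jun 1369788_s_at gave -0.076 in set I alone and -0.0024 without set II, and Jund -0.062 in set I alone. Fosl1 gave -0.17 on the 5 arrays with low spike-in signal, -0.092 without vehicle 3 and vehicle 5, and -0.061 to 0.97 with each array left out. Jun 1374404_at gave -0.0091 with array weights, -0.020 with the spike-in covariate, -0.043 in set I alone, -0.12 on the 7 bright spike-in arrays, -0.14 without vehicle 3 and vehicle 5, and -0.090 to 0.30 with each array left out. Jun 1389528_s_at gave -0.12 with the covariate, -0.74 in set II alone, -0.34 without set III, -0.056 on the 7 arrays, and -0.17 to 0.55 with each array left out. Junb turned under none of the 32. Values near background on vehicle 3 limit what set II can show.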
